A study of Mus musculus with 12 samples.

Results

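The Kv4 channel complex, which carries the A-type potassium current of neurons, was examined through its 9 genes in brains of Nsd2 KO and WT mouse embryos at E15.5. The genes were taken by symbol from the gene count tables of both sexes and are 9 of the 46078 genes listed. They are the pore subunit genes Kcnd1, Kcnd2 and Kcnd3, the KChIP genes Kcnip1, Kcnip2, Kcnip3 and Kcnip4, and the genes of the DPP-like subunits, Dpp6 and Dpp10. The rule uses the symbols alone and no measured value. All 9 genes passed the filter on low counts in every comparison.

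A-type channels open when the membrane is depolarised and then inactivate within milliseconds, so they delay the next action potential and damp the spread of signals into dendrites. A Kv4 channel is built of pore-forming subunits to which KChIPs, calcium-binding proteins of the neuronal calcium sensor family, bind from inside the cell. DPP6 and DPP10, single-pass membrane proteins related to the peptidase DPP4 but without its enzyme activity, bind the same channel, bring it to the cell surface and speed its gating. In the adult brain, Kv4 channels are known for controlling the excitability of dendrites of hippocampal and cortical neurons, whereas at the embryonic stage sampled here the neurons are still being born and wired.

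The KO embryos carried a constitutive deletion of the whole Nsd2 coding sequence made with CRISPR/Cas9, and the WT embryos carried none. Nsd2 encodes a histone methyltransferase that deposits H3K36me2, and both genotypes were on a C57BL/6 background without treatment. Brains were used, with 3 libraries each for KO males, WT males, KO females and WT females, so that cell types were mixed in every value and the deletion was present in all of them. The labels name the libraries as separate samples without naming litters, so the p-values measure the spread between these samples.

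The male libraries held 55703865 to 58904269 counts and the female libraries 40398665 to 59304196. Nsd2, which the tables list as Whsc1, had 0.905 to 2.66 CPM in the 6 KO libraries, against 348.2 to 409.7 CPM in the 6 WT libraries. CPM is the count of a gene scaled to a common library size, with TMM factors. The Y-linked and X-inactivation transcripts matched the labelled sex in 12 of 12 libraries. The libraries differed in their Hox transcripts. Hoxa5, a Hox gene of the hindbrain and spinal cord, had between 13.2 and 53.8 CPM in 6 libraries, 3 KO and 3 WT, and less than 1 CPM in the other 6, so values with the Hox level taken into account are given beside the results. Of 92 marker genes on 12 lists of cell types and regions, 0 were called over both sexes by edgeR or DESeq2. An unadjusted edgeR p under 0.05 was found in 8, where 13.7% of all genes had one. The lists are described after the Kv4 genes.

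Dpp10, Kcnd2 and Dpp6 were lower in KO brains, and the other 6 genes were not called in either direction. Fold changes are on the log2 scale, KO over WT, from edgeR's quasi-likelihood test over the 12 libraries with a term for sex. A gene was called at an adjusted p under 0.05 (Benjamini-Hochberg over 19768 genes, Nsd2 included). Of the 9 genes, 3 were called lower and 0 higher. The background was 1.52% of all genes called lower and 0.374% called higher. All 9 fold changes were below 0 and their median was -0.20, against a median of 0.0023 over all genes tested. In RNA of a mixed tissue, fewer cells of a type and less RNA per cell cannot be told apart.

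**Figure D1:**
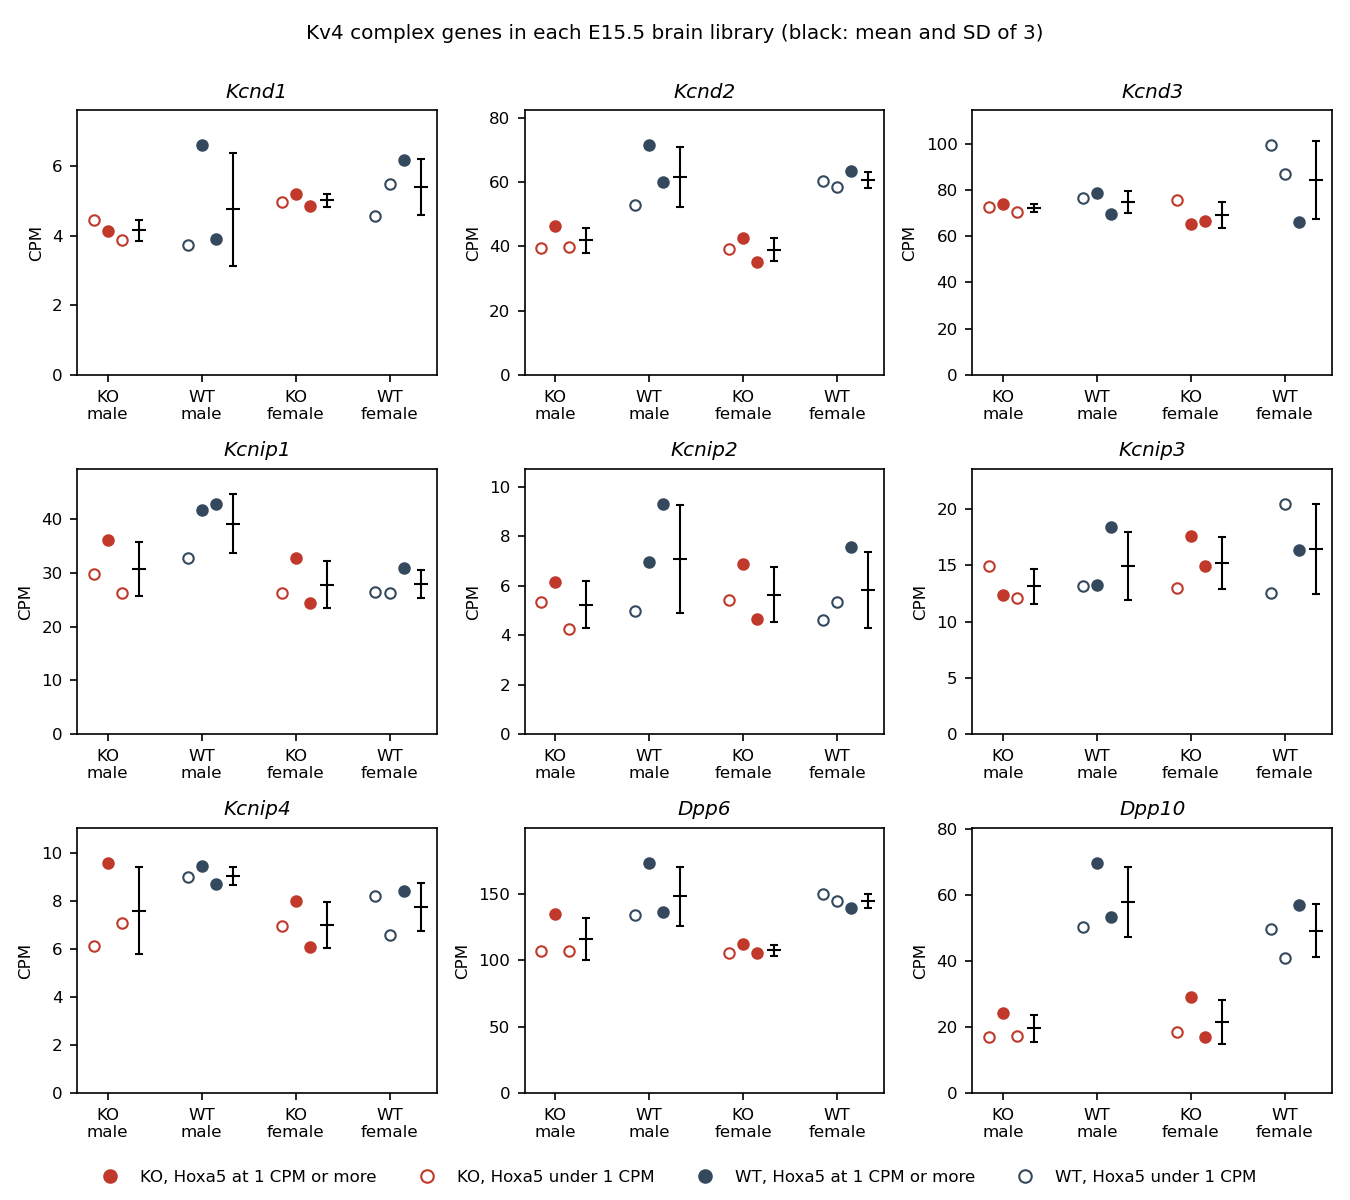
Level of each Kv4 complex gene in CPM (y axis of each panel, starting at 0) in each of the 12 libraries, with KO left of WT within each sex. Points are libraries, filled where Hoxa5 was at 1 CPM or more, and the black marks are the mean and SD of 3. In the Dpp10 panel all 6 KO points lie at or below 29.2 CPM and all 6 WT points at or above 40.8 CPM. The KO and WT points are also apart for Kcnd2. They overlap in the panels of Kcnd1, Kcnd3, Kcnip1, Kcnip2, Kcnip3, Kcnip4 and, by KO male 2 alone, Dpp6.

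Among the DPP-like subunits, Dpp10 had the largest difference of the 9 genes. In KO males it had 17.0, 24.3 and 17.4 CPM and in KO females 18.5, 29.2 and 17.0 CPM. In WT males it had 50.4, 69.8 and 53.4 CPM and in WT females 49.8, 40.8 and 57.0 CPM. The highest KO library, KO female 2, stayed below the lowest WT library, WT female 2, so the genotypes did not overlap, which over both sexes held, in the direction of lower KO values, for 1.29% of all genes. Dpp10 averaged 20.6 ± 5.07 CPM in KO brains and 53.5 ± 9.63 CPM in WT brains (SD, n = 6 each). The log2 fold change was -1.38 (SE 0.163, 95% interval -1.73 to -1.02, edgeR adjusted p = 0.00103), so that the level fell by 61.5%.

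Dpp10 lies on the minus strand of chromosome 1, at chr1:123321471-124045559 (GRCm38), and its transcribed span of 724.1 kb is almost all intron. The promoter window that RefSeq gives for it, 250 bases before to 50 after the transcript start, is shown with the CG dinucleotides in capitals because Dpp10 had the largest difference, and that of Kcnd2 is given with its values. On GRCm38.p6 it is chr1:124045510-124045809, read on the minus strand, and it holds 21 CG dinucleotides at a GC content of 65.0%, more CG dinucleotides than 75.2% of 32851 such windows, whose median is 7. A high CG count is not particular to the called genes, as the window of Kcnd3 holds 25 and 1 of the 3 windows of Kcnip3 holds 28, more than the 21 of Dpp10. These are features of the sequence, and no DNA methylation or chromatin measurement was used here.
Dpp10 promoter: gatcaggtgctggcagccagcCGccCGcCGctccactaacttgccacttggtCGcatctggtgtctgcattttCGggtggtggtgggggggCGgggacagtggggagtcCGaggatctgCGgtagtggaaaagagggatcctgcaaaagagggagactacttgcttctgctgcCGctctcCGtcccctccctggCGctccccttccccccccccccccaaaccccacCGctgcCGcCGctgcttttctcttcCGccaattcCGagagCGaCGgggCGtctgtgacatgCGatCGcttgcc

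Dpp6 was the most abundant of the 9 genes by CPM in every library. In KO males it had 107.3, 134.9 and 106.8 CPM and in KO females 105.3, 112.5 and 105.5 CPM. In WT males it had 134.3, 173.9 and 136.9 CPM and in WT females 150.3, 144.6 and 139.3 CPM. Only KO male 2, at 134.9 CPM, reached the WT range, whose lowest library was WT male 1 at 134.3 CPM. In females the genotypes did not overlap, which held there, KO lower, for 6.19% of all genes. The log2 fold change was -0.39 (SE 0.0762, 95% interval -0.55 to -0.22, edgeR adjusted p = 0.0186), so that the level fell by 23.6%. This call was the least stable of the 3. Without KO male 1, KO male 3, KO female 1 or KO female 3 the edgeR adjusted p was 0.0591, 0.0565, 0.0523 or 0.0598, and it stayed under 0.05 without any one of the other 8 libraries.

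Dpp6 spans 910.3 kb on the plus strand at chr5:26817203-27727505. Nsd2 lies on the same chromosome at chr5:33820725-33897975, and so does Kcnip4, which was not called, at chr5:48389502-49524907. RefSeq gives Dpp6 3 promoter windows, at chr5:26817107-26817406, chr5:27048949-27049248 and chr5:27261685-27261984, with 10, 6 and 16 CG dinucleotides. The count per gene does not tell their transcripts apart.

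Of the 3 pore subunit genes, only Kcnd2 was called. Kcnd2 encodes Kv4.2, the main pore subunit of dendritic A-type current in pyramidal neurons. In KO males it had 39.6, 46.3 and 39.7 CPM and in KO females 39.1, 42.5 and 35.2 CPM. In WT males it had 53.0, 71.7 and 60.2 CPM and in WT females 60.4, 58.5 and 63.4 CPM. Every KO library lay below every WT library, which over both sexes held for 1.29% of all genes. The closest pair was KO male 2 at 46.3 CPM and WT male 1 at 53.0 CPM. The level averaged 40.4 ± 3.72 CPM in KO brains and 61.2 ± 6.17 CPM in WT brains (SD, n = 6 each). The log2 fold change was -0.60 (SE 0.0759, 95% interval -0.76 to -0.44, edgeR adjusted p = 0.00109), so that the level fell by 34.0%.

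Kcnd2 lies on the plus strand of chromosome 6 at chr6:21215503-21729805 and spans 514.3 kb. Its RefSeq promoter window on GRCm38.p6 is chr6:21215096-21215395, plus strand, and holds 26 CG dinucleotides, shown in capitals, at a GC content of 68.7%. That is more CG dinucleotides than 83.1% of all windows have. TATAAA, searched on both strands, was found in the first of the 3 windows of Dpp6 and in no other window of the complex, this one and that of Dpp10 included, and it was found in 13.6% of all windows.
Kcnd2 promoter: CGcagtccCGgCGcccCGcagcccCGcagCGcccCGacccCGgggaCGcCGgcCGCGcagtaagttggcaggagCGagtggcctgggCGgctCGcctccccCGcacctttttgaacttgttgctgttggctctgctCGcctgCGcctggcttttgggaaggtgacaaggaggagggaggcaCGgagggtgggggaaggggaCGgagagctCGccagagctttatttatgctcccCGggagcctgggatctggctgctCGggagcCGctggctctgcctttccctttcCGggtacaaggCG

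Kcnd3 encodes Kv4.3, the pore subunit more typical of interneurons. It had 65.3 to 75.6 CPM in the KO libraries (median 71.5), against 66.3 to 99.5 CPM in the WT libraries (median 77.4). The ranges overlapped, and its log2 fold change of -0.17 (SE 0.0878, 95% interval -0.35 to 0.024) was not called (edgeR adjusted p = 0.441). Some of its exon sequence, 165 bases, is shared with the antisense gene Kcnd3os, and as the strand setting of the counting is not stated, reads from the overlap cannot be told apart. Kcnd1, which encodes Kv4.1 and is the only X-linked gene of the complex, had 3.87 to 5.21 CPM in the KO libraries (median 4.66) and 3.75 to 6.62 CPM in the WT libraries (median 5.02). Its log2 fold change was -0.15 (SE 0.138, 95% interval -0.45 to 0.15, edgeR adjusted p = 0.698), with KO values inside the WT range in every library.

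None of the KChIP genes was called between KO and WT over both sexes, by edgeR or by DESeq2. None had an unadjusted edgeR p under 0.05 in that comparison. Their log2 fold changes lay between -0.24 for Kcnip2 and -0.15 for Kcnip3, with edgeR adjusted p between 0.481 and 0.67. Kcnip1 (KChIP1), which marks subsets of inhibitory interneurons in the adult, had 24.4 to 36.2 CPM in KO libraries (median 28.0) and 26.3 to 43.0 CPM in WT libraries (median 31.9). It had the highest CPM of the KChIP genes. Kcnip3, whose product KChIP3 is also known as DREAM, a calcium-dependent transcriptional repressor, and as calsenilin, had 12.1 to 17.6 CPM in KO libraries (median 13.98) and 12.5 to 20.5 CPM in WT libraries (median 14.8).

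Kcnip4 and Kcnip2 were lower in level. Kcnip4 (KChIP4), whose splice forms include one that slows channel inactivation, had 6.08 to 9.60 CPM in KO libraries (median 7.02) and 6.58 to 9.45 CPM in WT libraries (median 8.58). Its exons overlap those of 5730480H06Rik and Gm20700, on the opposite strand, by 168 and 99 bases. Kcnip2 (KChIP2), the KChIP of the cardiac transient outward current that is also found in pyramidal neurons, had 4.25 to 6.87 CPM in KO libraries (median 5.37) and 4.59 to 9.32 CPM in WT libraries (median 6.14). In each of the 4 genes the KO and WT ranges overlapped, and the 95% intervals of the log2 difference ran from -0.63 to 0.14 for Kcnip2, -0.45 to 0.047 for Kcnip4, -0.43 to 0.12 for Kcnip3 and -0.42 to 0.058 for Kcnip1, so falls of the size seen in Dpp6 were within the interval of each of the 4.

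**Figure D2:**
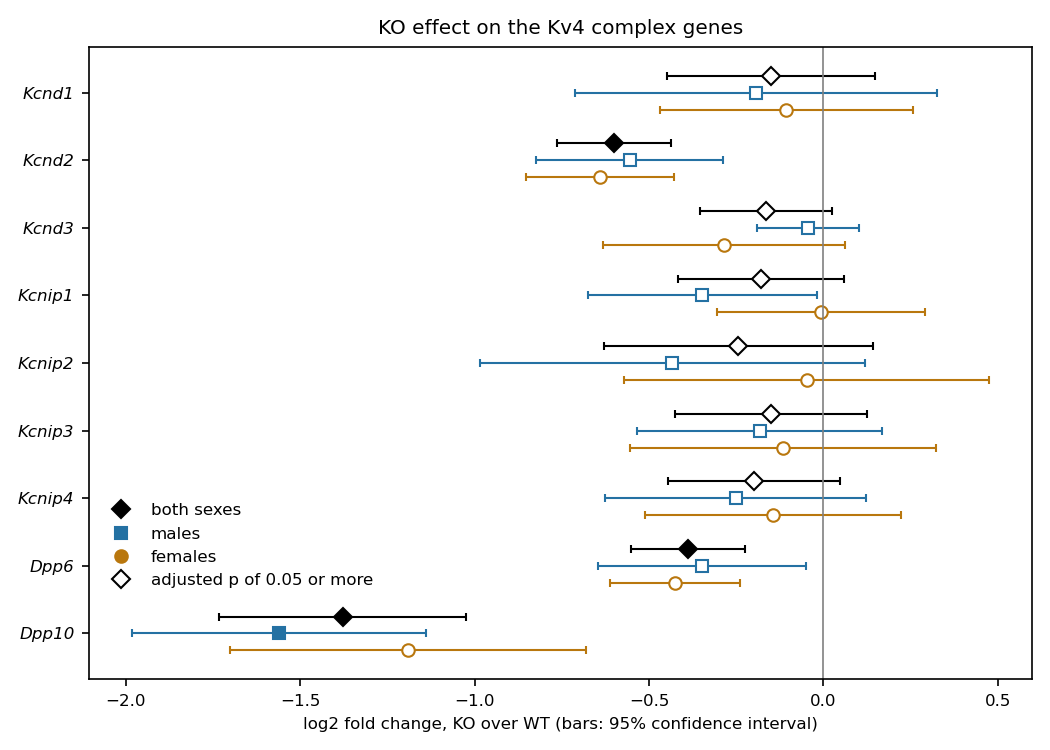
Log2 fold change of the 9 genes, KO over WT (x axis), with 95% intervals from edgeR, over both sexes and in males and females alone, and filled symbols mark an adjusted p under 0.05. Every point lies left of 0, and Dpp10 lies farthest, at -1.38 over both sexes, -1.56 in males and -1.19 in females.

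Within each sex, with 3 libraries a genotype, fewer genes were called. In males only Dpp10 was called, 1 of 9 genes against a background of 0.337% of 18671 genes called lower. Its log2 fold change was -1.56 (SE 0.179, edgeR adjusted p = 0.0205), with 17.0 to 24.3 CPM in KO males and 50.4 to 69.8 CPM in WT males. The call was lost without KO male 1, KO male 3 or WT male 3, with edgeR adjusted p of 0.127, 0.125 and 0.0781. Kcnd2 in males had a log2 fold change of -0.56 (SE 0.116, edgeR adjusted p = 0.121) and no overlap between the genotypes, which held for 8.82% of all genes, KO lower. The study names Kcnd2 among its genes lower in KO brains at the same edgeR threshold, without stating which edgeR test was used. Dpp6 in males had -0.35 (SE 0.128, edgeR adjusted p = 0.359). The unadjusted p was under 0.05 in 4 of the 9 genes, where it was in 11.9% of all genes, the other one being Kcnip1 at -0.35 (SE 0.142, edgeR adjusted p = 0.397).

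In females 0 of the 9 genes were called by edgeR, against a background of 0.00535% of 18709 genes called lower. The unadjusted p was under 0.05 in 3 of them, Kcnd2, Dpp6 and Dpp10, where 7.47% of all genes had one, and DESeq2 called the same 3 genes lower, where it called 0.69% of all genes lower. Kcnd2 had a log2 fold change of -0.64 (SE 0.0922, edgeR adjusted p = 0.134), Dpp6 -0.43 (SE 0.0806, edgeR adjusted p = 0.283) and Dpp10 -1.19 (SE 0.22, edgeR adjusted p = 0.283). In each of these 3 genes the KO females lay below all WT females, which held for 6.19% of all genes. The other 6 genes lay between -0.28 for Kcnd3 and -0.0061 for Kcnip1.

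The response to the deletion was not shown to differ between the sexes. The sex by genotype interaction was called for 0 of the 9 genes by edgeR and by DESeq2, 0 had an unadjusted p under 0.05, and the edgeR adjusted p ran between 0.91 and 0.983. Among all 19767 genes 0 were called by edgeR, 879 had an unadjusted p under 0.05 and DESeq2 called 5. The interaction of Dpp10, its log2 fold change in males minus that in females, was -0.37 (95% interval -1.06 to 0.32), and those of Kcnd2 and Dpp6 were 0.083 (-0.25 to 0.42) and 0.075 (-0.26 to 0.41). Intervals of this width leave room for a difference in Dpp10 as large as the whole fall of Kcnd2.

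Between the sexes, male over female with genotype as a covariate, 0 of the 9 genes were called by edgeR, where 23.7% of all genes were. The nearest was Kcnip1 at 0.32 (SE 0.11, edgeR adjusted p = 0.0526), the only one of the 9 with an unadjusted p under 0.05 (35.5% of all genes had one) and called by DESeq2 (27.1% of all genes). It averaged 30.8 ± 5.05 CPM in KO males and 39.2 ± 5.50 CPM in WT males, 27.8 ± 4.41 CPM in KO females and 27.9 ± 2.62 CPM in WT females (SD, n = 3 each). The highest libraries were WT male 2 and WT male 3 at 41.7 and 43.0 CPM. The males and females were deposited as separate tables, so that sex and any difference in how they were prepared cannot be told apart. X-linked Kcnd1 had -0.23 (SE 0.139, edgeR adjusted p = 0.268).

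The level of the Hox genes was then set against that of the Kv4 genes. With the mean log2 CPM of the Hox genes fitted beside sex and genotype, 0 of the 9 genes followed it at an adjusted p under 0.05 (edgeR, 0.546% of all genes called), 4 had an unadjusted p under 0.05 (17.3% of all genes had), and DESeq2 called Kcnip1, Kcnip2 and Dpp10 (5.46% of all genes). The slopes per log2 unit of the Hox level were 0.053 for Kcnip1 (edgeR adjusted p = 0.0826), 0.082 for Kcnip2 (0.0999), 0.066 for Dpp10 (0.138) and -0.037 for Kcnd3 (0.127). KO male 2 and KO female 2, the highest KO libraries for Dpp10 at 24.3 and 29.2 CPM, were both among the 6 libraries with Hoxa5, and so was KO female 3, which had the lowest Dpp10 level of the 12 libraries, at 16.98 CPM. With the Hox level in the fit, the genotype differences over both sexes were -1.37 for Dpp10, -0.59 for Kcnd2 and -0.39 for Dpp6, with edgeR adjusted p of 0.00011, 0.000708 and 0.016.

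In the 6 libraries with less than 1 CPM of Hoxa5, fitted alone, Dpp10 was called at -1.42 (edgeR adjusted p = 0.00573), while Kcnd2 had -0.50 (0.0587) and Dpp6 -0.40 (0.113). Of 20427 genes tested in these libraries, 31 were called lower and 6 higher. There Kcnd1 and Kcnip2, which were not called, lay above 0, at 0.078 and 0.042. In the 6 libraries with more, 0 of the 9 were called by edgeR, and of 20421 genes tested 3 were called lower and 8 higher. In that fit Dpp10 had -1.33 (edgeR adjusted p = 0.299), Kcnd2 -0.61 (0.255) and Dpp6 -0.28 (0.775). In males, the 3 KO libraries held 1 with Hoxa5 and the 3 WT libraries held 2. With the Hox level in the male fit, Dpp10 had -1.32 (edgeR adjusted p = 0.0448) and Kcnd2 and Dpp6 had -0.36 and -0.18, against -0.56 and -0.35 without it.

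Compared per kb of exon, the levels of the 9 genes spanned about an order of magnitude. In WT brains Kcnd2 and Dpp6 stood level, at 11.9 ± 1.20 and 11.9 ± 1.18 CPM per kb (SD, n = 6), followed by Kcnd3 at 8.29 ± 1.27, Kcnip1 at 5.41 ± 1.17, Kcnip3 at 4.43 ± 0.921, Dpp10 at 3.39 ± 0.610, Kcnip4 at 2.31 ± 0.273, Kcnip2 at 1.86 ± 0.525 and Kcnd1 at 0.961 ± 0.226 CPM per kb. In KO brains Dpp6 came first at 9.08 ± 0.930, then Kcnd2 at 7.84 ± 0.721 and Kcnd3 at 7.38 ± 0.428 CPM per kb. Dpp10, sixth in WT brains, was eighth in KO brains at 1.30 ± 0.321 CPM per kb, with only Kcnd1 lower at 0.867 ± 0.0982.

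**Figure D3:**
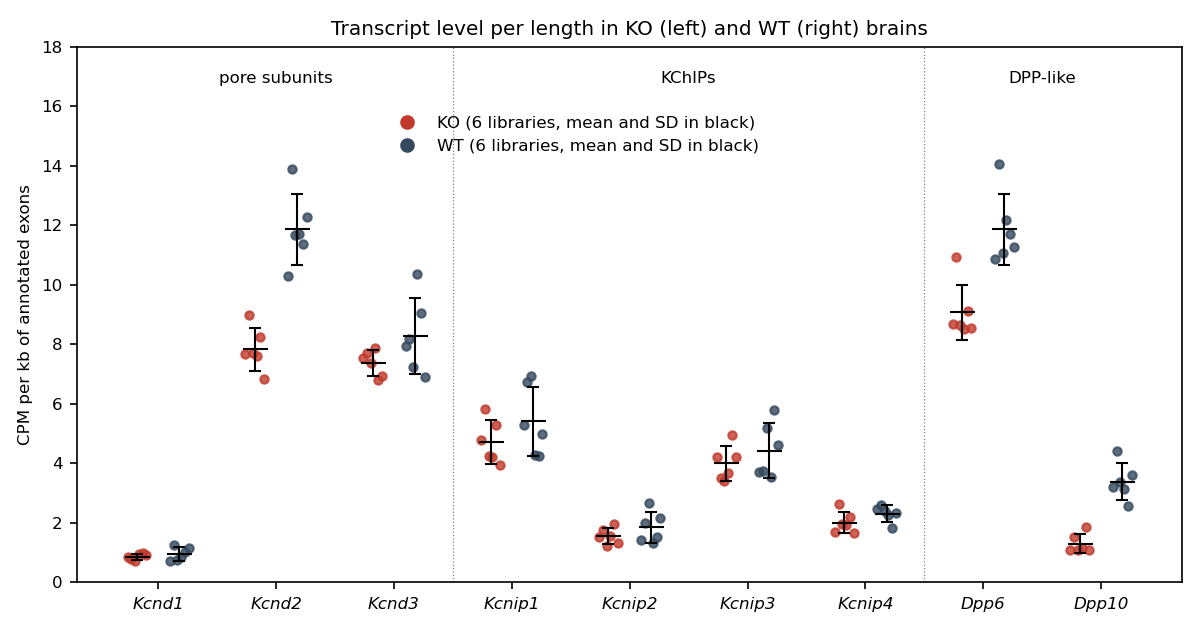
Level of the 9 genes in CPM per kb of annotated exon (y axis, starting at 0), KO left of WT for each gene, with 6 libraries each as points and the mean and SD in black. Dpp10 lies between 1.08 and 1.85 CPM per kb in KO libraries and between 2.59 and 4.42 in WT libraries.

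Neighbours in this order mostly overlapped. In WT brains the range of Dpp6 (10.9 to 14.1 CPM per kb) overlapped that of Kcnd2 (10.3 to 13.9) and above that of Kcnd3 (6.91 to 10.4), which Kcnd2 overlapped. From Kcnd3 downwards each gene overlapped the next, through Kcnip1 (4.25 to 6.93), Kcnip3 (3.53 to 5.78), Dpp10 (2.59 to 4.42) and Kcnip4 (1.82 to 2.605) to Kcnip2 (1.32 to 2.68). Kcnd1, at 0.709 to 1.25 CPM per kb in WT brains, stood below all others. The exon length used is the union over all annotated transcripts, which can be longer than any one transcript of a gene with several, so levels per kb of such genes are on the low side.

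The shares of the mRNAs within each class of subunit were compared next. Dpp10 gave 12.5 ± 2.22% of the DPP-like level per kb in KO brains (11.0 to 16.9%) and 22.1 ± 2.38% in WT brains (18.1 to 24.3%), so the ranges did not overlap (SD, n = 6 each). Kcnd2 gave 48.7 ± 2.29% of the pore subunit level in KO brains (46.2 to 51.4%) and 56.3 ± 3.99% in WT brains (51.0 to 60.4%), with a slight overlap. Among the KChIPs the mean shares were within 1 percentage point of each other, as Kcnip1 gave 38.3% in KO and 38.4% in WT brains, Kcnip3 32.7% and 31.8%, Kcnip4 16.4% and 16.7%, and Kcnip2 12.7% and 13.1%. The summed level per kb was 10.4 ± 1.14 in KO and 15.3 ± 1.65 in WT brains for the DPP-like genes, 16.1 ± 0.907 in KO and 21.1 ± 1.78 in WT brains for the pore genes, and 12.3 ± 1.48 in KO and 14.02 ± 1.99 in WT brains for the KChIP genes. The sums of the DPP-like and pore genes did not overlap between the genotypes, and those of the KChIP genes did (10.8 to 14.4 in KO and 11.4 to 17.2 in WT brains). The DPP-like sum holds only Dpp6 and Dpp10, both called, and of the pore genes Kcnd1 and Kcnd3 overlapped. These sums are therefore not separate from the falls of Dpp6, Dpp10 and Kcnd2. These sums and shares are descriptions of mRNA and were not tested.

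The genes were also compared with each other across libraries. Over the 12 libraries, Pearson's r of log2 CPM was 0.96 for Kcnd2 with Dpp10, 0.95 for Kcnd2 with Dpp6 and 0.90 for Dpp6 with Dpp10. After removing the mean of each genotype and sex, r was 0.86, 0.83 and 0.69 for these pairs. Pairs of a called and an uncalled gene reached the same range within the groups, with 0.84 for Kcnip4 and Dpp10, 0.83 for Kcnip1 and Dpp10 and 0.82 for Kcnd2 and Kcnip1. Of the 36 pairs, 2 had r over 0.9 and 5 were below 0. Kcnip1 and Kcnip2 had r of 0.80, and 0.90 within the groups. These are descriptions over 12 libraries in which genotype, sex and the Hox level also vary.

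**Figure D4:**
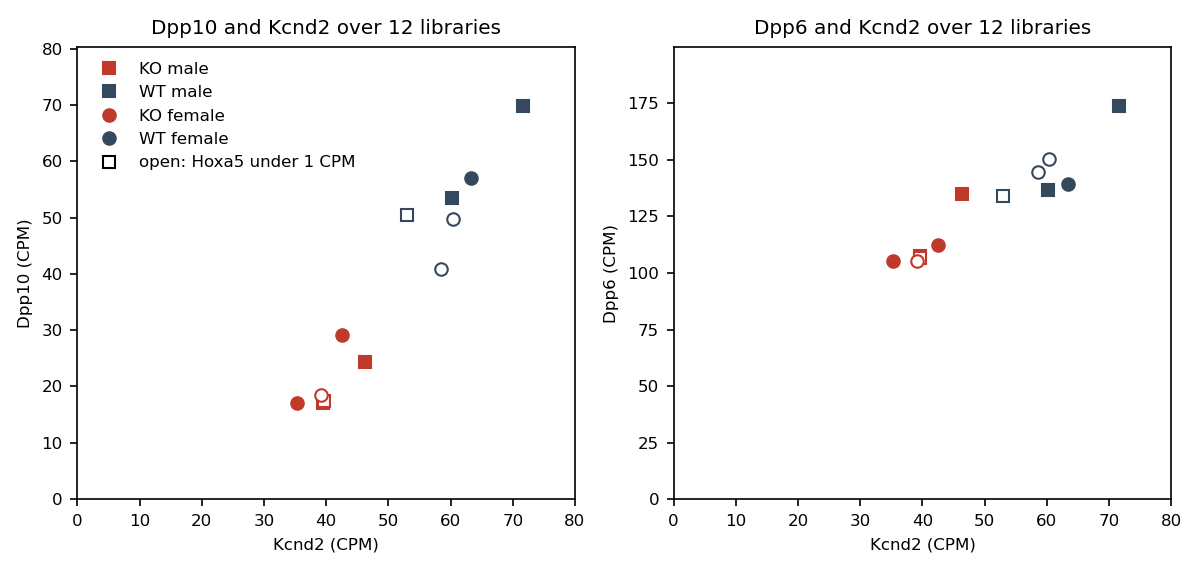
Level of Dpp10 (left) and of Dpp6 (right) in CPM (y axes) against that of Kcnd2 in CPM (x axes) in the 12 libraries, with squares for males, circles for females and open symbols where Hoxa5 was under 1 CPM. The KO libraries lie to the left, with Kcnd2 at or under 46.3 CPM, and the WT libraries have Kcnd2 at or over 53.0 CPM. For Dpp10 the KO libraries also lie below the WT libraries. For Dpp6 KO male 2, at 134.9 CPM, lies above WT male 1, at 134.3 CPM.

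The genes most like each of the 9 across the libraries, among 19767 others, were then taken by Pearson's r of log2 CPM. For Kcnd2 they were Pcdh11x (r = 0.98), a protocadherin gene of the X chromosome, Grid1 (0.98), which encodes a glutamate receptor of the delta type that organises synapses, and Slc7a14 (0.97). For Dpp6 they were Snap91 (0.97), which encodes the synaptic vesicle endocytosis protein AP180, Mid2 (0.97) and Slc7a14 (0.97). For Dpp10 they were Grin3a (0.99), an NMDA receptor subunit gene of the developing brain, Cyp4x1 (0.99) and Jak1 (0.99). All 8 of these genes were called lower in KO brains over both sexes, with log2 fold changes from -1.24 for Cyp4x1 to -0.32 for Snap91 (edgeR adjusted p between 5.54e-05 and 0.0308). They were picked for following genes that differ by genotype over the same libraries, so lower KO values are built into the choice and are no separate result.

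The neighbours of the other 6 genes were not called. Kcnd3 was most like Sik3 (0.97), Cdc42bpa (0.94) and Asxl3 (0.94), and Kcnip1 was most like Rwdd2a (0.98), Stmn2 (0.96), a gene of growing axons, and Glrx (0.94). Kcnip4 was most like Slco1c1 (0.97), a thyroxine and organic anion transporter, Tspan33 (0.96) and Dbx2 (0.95). The highest r was lower for Kcnip2 (6330403A02Rik, 0.93, then AI413582, 0.93, and Mgst3, 0.92), Kcnd1 (Ahnak2, 0.90, Asic3, 0.87, and Itga3, 0.83) and Kcnip3 (3110082I17Rik, 0.88, Dnajc30, 0.84, and mt-Nd3, 0.82). The nearest gene of a member was chosen as the highest of many values over 12 libraries, so these r are a description.

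The called genes of the complex are long. Of the 4 genes with a span of 500 kb or more, Dpp10, Dpp6 and Kcnd2 were called and Kcnip4, the longest at 1135.4 kb, was not, with a log2 fold change of -0.20. Of the 5 shorter genes, with spans between 16.0 kb for Kcnd1 and 363.8 kb for Kcnip1, 0 were called over both sexes by edgeR or DESeq2. In that comparison 0 of the 5 had an unadjusted edgeR p under 0.05. Among all genes tested over both sexes, the share called lower was 20.4% of 225 genes of 500 kb or more, 5.55% of 2199 genes of 100 to 500 kb, 0.904% of 9843 genes of 10 to 100 kb and 0.533% of 7319 shorter genes. The median log2 fold change of the 225 longest genes was -0.19. The comparison by span was chosen after the values were seen, and the part of gene length in the falls of the 3 genes was not tested.

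**Figure D5:**
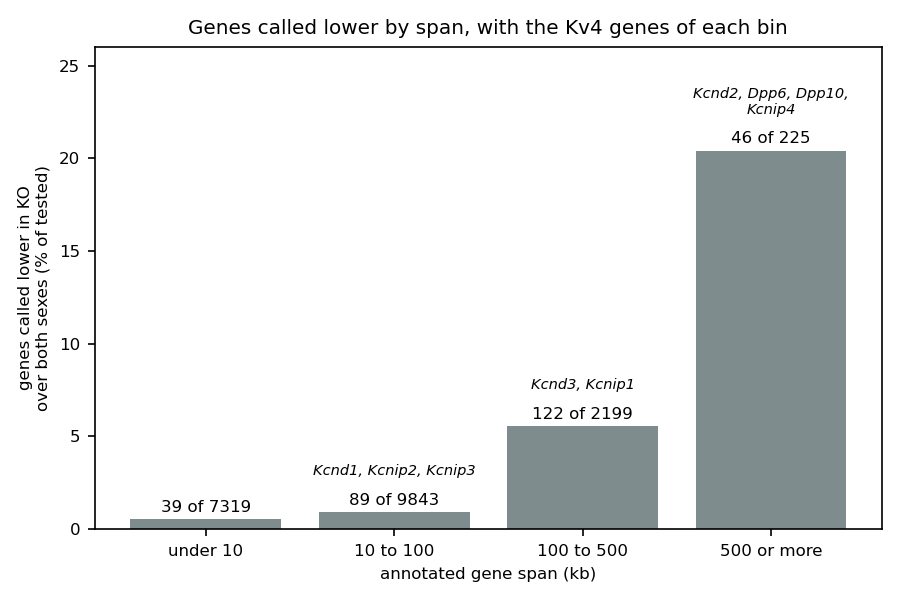
Share of genes called lower in KO brains (y axis, percent of genes tested over both sexes, starting at 0) by the length of the transcribed span in kb (x axis). The bar of genes of 500 kb or more stands at 20.4% and that of genes under 10 kb at 0.533%, and the Kv4 genes are named above the bar of their length.

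Other genes of the same pathway were counted in the same fit over both sexes. Of 20 partners and regulators of Kv4 channels, 19 were tested, 0 were called by edgeR or DESeq2, 2 had an unadjusted edgeR p under 0.05 (13.7% of all genes had one), and their median log2 fold change was -0.029. Of 3 genes of other A-type pores, Kcnc4, which encodes Kv3.4, was called lower over both sexes, at 8.80 CPM in KO and 15.2 CPM in WT brains (log2 fold change -0.79, SE 0.134, edgeR adjusted p = 0.00767). All 3 were below 0 with a median of -0.40, and all 3 had an unadjusted edgeR p under 0.05. Of 7 other neuronal calcium sensor genes, the family to which the KChIPs belong, 6 were tested and Vsnl1, which encodes visinin-like protein VILIP-1, was called lower, at 17.7 CPM in KO and 34.1 CPM in WT brains (log2 fold change -0.94, SE 0.21, edgeR adjusted p = 0.0441). Of the 6, 2 had an unadjusted edgeR p under 0.05, each lower in KO, and the median of the 6 was -0.093. Among all genes tested, edgeR called 1.52% lower. DESeq2 also called Hpcal4 lower, a gene outside the rule for naming that was picked after its value was seen. Of 4 other genes of the DPP4 family 0 were called by edgeR or DESeq2 and 0 had an unadjusted p under 0.05, with a median of -0.024.

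Markers of neurons were examined beside the falls of Dpp10, Kcnd2 and Dpp6. Of 9 pan-neuronal genes 0 were called over both sexes by edgeR or DESeq2. An unadjusted edgeR p under 0.05 was found in 2, where 13.7% of all genes had one. The median log2 fold change of the 9 was -0.027. Their summed level was 6532 to 6616 CPM in KO males, against 6389 to 6518 CPM in WT males, and 6055 to 6282 CPM in KO females, against 6206 to 6647 CPM in WT females. The medians were 0.022 for 8 markers of glutamatergic neurons, 0.26 for 8 of GABAergic neurons and 0.11 for 10 of neural progenitors. Markers of the forebrain had a median of 0.18 over both sexes, with 0.39 in males and 0.13 in females. Those of the midbrain and hindbrain had -0.18 over both sexes, but 0.016 in males and 0.24 in females. The Hox genes had a median of -0.79 over both sexes, with -2.92 in males and 1.17 in females.

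Among cell types other than neurons, the median over both sexes was 0.20 for markers of the choroid plexus, 0.075 for blood, -0.078 for endothelial and mural cells, -0.21 for microglia and -0.30 for the oligodendrocyte lineage. The 5 genes of the oligodendrocyte lineage were all below 0, and 3 had an unadjusted edgeR p under 0.05 (13.7% of all genes). They summed to 85.1 to 99.8 CPM in KO males, against 109.6 to 168.7 CPM in WT males, and 71.1 to 115.4 CPM in KO females, against 97.0 to 137.3 CPM in WT females. In males the sums did not overlap. Of the 90 markers of the 12 lists tested in males, edgeR called 0 and 20 had an unadjusted edgeR p under 0.05 (15 lower). DESeq2 called 4 lower, which were Sox10 and Olig1 of this lineage, Fabp7 of the neural progenitors and Hoxd4, named after their values were seen. Of all genes in males, 11.9% had an unadjusted edgeR p under 0.05 and DESeq2 called 1.93% lower. Of the 8 blood markers 7 had an unadjusted edgeR p under 0.05 in males, 5 of them lower. The sum of the 8 lay lower there without overlap, with 1831 to 2516 CPM in KO males, against 2558 to 3210 CPM in WT males. In females the ranges overlapped, with 1752 to 3160 CPM in KO females, against 1410 to 2047 CPM in WT females. Among single genes in males, 8.82% had every KO value below every WT value. The part of these markers in the falls of Dpp10, Kcnd2 and Dpp6 was not tested.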

How the data were processed

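RNA of E15.5 mouse brains was sequenced after ribosomal RNA depletion with a stranded kit, with 3 libraries per genotype and sex. The deposited values are gene counts, not normalized. Per the methods and the submitters' processing notes, the authors trimmed reads (FASTX-toolkit, cutadapt 2.6), aligned them to mm10 (HISAT2 2.1.0) and derived counts from StringTie 2.0.6 transcript coverage on an Ensembl annotation, which rounds coverage to whole counts. The strand setting and filters are not stated, and 2 sequencers and 2 versions of the depletion kit were in use without a record here of which library had which, so those differences cannot be told apart from the groups.

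Counts were tested in R 4.3.3 with edgeR 4.0.16 (TMM, filterByExpr with at least 10 counts per library scaled to depth and 15 in total, robust quasi-likelihood fit), with Benjamini-Hochberg adjustment over all genes at 0.05, as the study's methods name edgeR and this threshold. KO was compared with WT over both sexes with sex as a covariate, in each sex, by interaction and with the Hox level as a covariate. Nsd2 was left out of the counts of called genes. Log2 CPM used a prior count of 2. The test was checked on simulated counts with the same spread setting for every gene and no differences by sex or Hox level. That check therefore says nothing on how such differences bear on the calls. DESeq2 1.42.0, other normalization and filters, a replicate block, a common spread and leaving out each library were alternatives. Intervals are at 95%. Counts are of reads without molecular identifiers, so depth sets a lower limit on the error.

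Positions, spans and exon lengths came from GENCODE M21 on GRCm38, and promoter windows from RefSeq on GRCm38.p6, which held 8 of the 9 genes. All 9 genes are named, with up to 3 called genes of each other list, the 3 genes most correlated with each member, and Whsc1 and Hoxa5 as checks. The members and lists (partners, related families, markers of cell types and regions) were chosen with earlier results of these data known.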

Additional observations from a re-analysis of the deposited data

How the results depend on the processing

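Over both sexes, 3 genes were called under RLE normalization, DESeq2, no filter, a filter at 1 CPM, the Hox covariate and the replicate block. In that order, these fits called 313, 587, 261, 301, 396 and 227 of all genes lower, with 15635 to 30135 genes tested. In the libraries with less than 1 CPM of Hoxa5, 1 gene was called (Dpp10), and 0 in those with more. Leaving out 1 library at a time gave 2 to 3 genes, where 162 to 315 of all genes were called lower. In all 12 such fits Kcnd2 (log2 fold change -0.64 to -0.54, edgeR adjusted p 0.000568 to 0.00542) and Dpp10 (-1.52 to -1.28, 9.56e-05 to 0.00451) were called, and Dpp6 (-0.44 to -0.33, 0.00571 to 0.0598) was called in 8. In males, where 1 was called, DESeq2 called 2 (Kcnd2 and Dpp10), a spread shared by the 12 libraries 2, and leaving out 1 library 0 to 1. Of all genes in males, DESeq2 called 361 lower, the shared spread 84 and leaving out 1 library 11 to 88. In females, where 0 were called by edgeR, 3 had an unadjusted edgeR p under 0.05 and DESeq2 called 3. The shared spread called 1 (Kcnd2, edgeR adjusted p = 0.0443) and leaving out 1 library 0. Of all genes in females, DESeq2 called 129 lower, the shared spread 28 and leaving out 1 library 0 to 34. For male over female, DESeq2 called 1 (Kcnip1), where it called 27.1% of all genes, and leaving out 1 library called 0 to 1. For the Hox level, DESeq2 called 3 (5.46% of all genes) and leaving out 1 library 0 to 3. The 3 without KO female 3 were Kcnip1, Kcnip2 and Dpp10, where 445 of all genes were called lower and 492 higher. The interaction stayed at 0 calls in each alternative.

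After the mean of each genotype and sex was removed from each gene's log2 CPM, same-numbered KO and WT libraries of a sex had r of -0.053 to 0.19. Differently numbered ones had r of -0.22 to 0.21, so the numbers were not taken as pairs. With the replicate block, 3 genes were called over both sexes, 3 in males (Kcnd2, adjusted p = 0.0147, Dpp6, 0.031, and Dpp10, by edgeR) and 0 in females. Of all genes, the block called 227 lower over both sexes, 219 in males and 0 in females.

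Directions turned only in genes that were not called, and the cause was not tested. In the libraries with less than 1 CPM of Hoxa5, Kcnd1 had 0.078 and Kcnip2 0.042, and with the Hox covariate in males Kcnd1 had 0.023 and Kcnip2 0.0060. Leaving out 1 library, Kcnd1 in males ran between -0.34 and 0.12, and in females Kcnip1 between -0.14 and 0.082, Kcnip2 between -0.21 and 0.18 and Kcnip3 between -0.28 and 0.071. Over all genes and both sexes, edgeR called 300 lower and 74 higher, DESeq2 587 and 218, and edgeR in the libraries with less and with more Hoxa5 31 and 6, and 3 and 8. In males edgeR called 63 lower and 23 higher, with the replicate block 219 and 70, with the Hox covariate 13 and 9, and DESeq2 361 and 122. In females edgeR called 1 lower and 2 higher, and DESeq2 129 and 50. With 3 libraries a group, single-sex results rest on few samples.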
